A study of Mus musculus with 6 samples.

Results

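The genes described here encode the RUNX transcription factors, the subunit they bind DNA with, and the ETO family of corepressors. The 7 listed genes were Runx1, Runx2, Runx3, Cbfb, Runx1t1, Cbfa2t2 and Cbfa2t3. Their members on the array were all probe sets that the platform annotation assigns to exactly 1 gene when that gene is one of the 7. This gave 22 of 45037 probe sets, for 6 of 18193 named genes. Runx1 and Runx1t1 had 6 probe sets each, Cbfa2t3 had 4, Cbfa2t2 had 3, Runx3 had 2 and Cbfb had 1. No probe set was assigned to Runx2 alone, so Runx2 has no value here. Probe sets of 1 gene read transcripts of the same gene and are not independent measurements. Counts of probe sets below are therefore not counts of genes.

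The study compared mouse bone marrow cells, all with the leukaemic fusion oncogene MLL-AF9, that had or lacked a working Mn1 gene, which encodes a transcriptional cofactor. The control group, MLL-AF9/Mn1wt (n = 3 arrays), had intact Mn1, and in MLL-AF9/Mn1null (n = 3 arrays) the gene had been deleted with CRISPR-Cas9. Both groups carried MLL-AF9 and a control vector expressing EGFP, were sorted, received no treatment, and grew in DMEM with fetal calf serum, mouse interleukin 3, human interleukin 6 and mouse stem cell factor. Not given in the sources used here are the strain, age and number of animals, the guide and the number of clones. Nothing in the labels says that replicates were separate cultures or animals, and the spread behind each p-value may therefore be technical.

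Each array gave RMA log2 values, a scale on which a difference of 1 is a 2-fold change. The medians of the arrays were 5.17 to 5.23, and correlations over all probe sets were 0.9970 to 0.9978 within a group and 0.9814 to 0.9828 between groups. Mn1 had 1 probe set, at 4.49, 4.12 and 4.44 in Mn1wt replicates 1 to 3 and at 4.21, 4.12 and 4.07 in Mn1null. The groups overlapped, and their means differed by -0.22 (95% interval -0.46 to 0.03), with an adjusted p of 0.182 by limma. The means, 4.35 in Mn1wt and 4.13 in Mn1null, were both close to 4.07, the 30th percentile of the mean of all probe sets. With so low a signal in Mn1wt, a loss could hardly show. Its place relative to the deletion is also unknown here, so this probe set does not check the labels. Of 8 genes that mark marrow progenitors and this leukaemia, 4 were higher and 1 lower in Mn1null. Among all named genes, 16.7% were higher and 18.0% lower by the same test. Cd34, a progenitor surface protein, rose from 11.04 ± 0.0376 to 11.83 ± 0.00519, by 0.79 ± 0.0564, and the integrin chain Itgam from 7.13 ± 0.104 to 7.98 ± 0.0383, by 0.84 ± 0.0716. Hoxa9, a target of MLL fusions, fell from 12.26 ± 0.0306 to 11.95 ± 0.029, a change of -0.31 ± 0.0569. Meis1 and Myb were higher by 0.24 and 0.23. Ptprc, which encodes the blood cell antigen CD45, Kit and Spn did not pass (0.03, -0.17 and 0.19). These values read each gene by its brightest probe set. The 2 other Meis1 probe sets, at -0.02 and 0.15, did not pass, while the other Spn probe set passed as higher (0.46). The other probe sets of Myb (0.25 and 0.51) and Hoxa9 (-0.22) passed in the same direction. Those of Ptprc (-0.06) and Kit (-0.09) did not pass. On the brightest probe sets, all 8 genes had means above the 30th percentile of all probe sets in both groups. The mean over the 8 genes was 10.7 on the Mn1wt arrays and 10.9 on the Mn1null arrays.

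RUNX proteins bind a short DNA motif through their Runt domain, and CBFB, which does not bind DNA itself, joins them and strengthens the binding. RUNX1 is needed for definitive blood formation and for megakaryocyte and lymphoid maturation, RUNX2 for bone, and RUNX3 acts in lymphocytes, neurons and myeloid cells. The ETO proteins, encoded by Runx1t1 (ETO), Cbfa2t2 (MTGR1) and Cbfa2t3 (ETO2), do not choose their DNA sites on their own: they are brought to them by factors such as E proteins and TAL1 and recruit histone deacetylases. Both families are known from leukaemia through the fusions RUNX1-RUNX1T1, CBFB-MYH11 and CBFA2T3-GLIS2.

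The sequences of the RUNX genes are shown first because the window of a start of each carries the motif that the proteins bind. RefSeq promoter windows (GRCm38.p6, 250 bases before to 50 after each transcript start) matched 6 of the 7 genes by symbol and gave 9 windows. The RUNX core motif searched was TGTGGT, which reads ACCACA on the other strand. A pair of ACCACA motifs separated by any 2 bases (ACCACANNACCACA, both strands) was present in 7 of 32851 windows (0.0213%). Windows of Runx1, Runx2 and Runx3 were 3 of these, and the others belonged to Gm12236, Gm15462, Gm16225 and Olfr24. The stretches of 30 bases below run 5′ to 3′ on the gene's strand, with only the core motif in capitals.
Runx1, chr16:92826025-92826054 (-): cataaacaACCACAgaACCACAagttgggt
Runx2, chr17:44814583-44814612 (-): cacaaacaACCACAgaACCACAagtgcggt
Runx3, chr4:135120503-135120532 (+): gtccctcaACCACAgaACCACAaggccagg
Counted from the start site, the stretch begins at base 21 in Runx1, at base 16 in Runx2 and at base -142 in Runx3. Runx1 and Runx3 each had another window, and neither held the core motif. The core motif alone was present in 16.8% of all windows and at least 2 copies in 1.81%. A match describes letters in a window, and binding was not measured. In the same build, Runx1 spans chr16:92601466-92826074, Runx2 chr17:44495987-44814797, Runx3 chr4:135120645-135177990 and Cbfb chr8:105170674-105217989. The corepressor genes lie at chr4:13742628-13895056 (Runx1t1), chr2:154436098-154539356 (Cbfa2t2) and chr8:122625136-122699332 (Cbfa2t3).

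Runx1 and Cbfa2t3 were the genes whose probe sets rose, and the 250 bases before their starts are given for that reason. Capitals mark RUNX motifs (TGTGGT and the variant TGCGGT), ETS motifs (AGGAAG and CGGAAG) and the GATA motif (GATAA), each on both strands.
Runx1 distal start, chr16:92826075-92826324 (-): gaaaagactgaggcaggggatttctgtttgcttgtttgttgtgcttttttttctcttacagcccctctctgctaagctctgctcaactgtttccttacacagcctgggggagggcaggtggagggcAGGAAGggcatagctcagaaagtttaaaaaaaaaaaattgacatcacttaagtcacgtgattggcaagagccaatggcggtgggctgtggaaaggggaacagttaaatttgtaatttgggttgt
Runx1 proximal start, chr16:92697330-92697579 (-): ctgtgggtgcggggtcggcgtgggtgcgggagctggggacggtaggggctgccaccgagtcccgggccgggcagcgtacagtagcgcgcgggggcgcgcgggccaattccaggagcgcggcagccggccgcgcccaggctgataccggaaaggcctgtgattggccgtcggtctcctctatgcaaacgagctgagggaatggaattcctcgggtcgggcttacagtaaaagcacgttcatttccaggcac
Cbfa2t3 distal start, chr8:122699110-122699359 (-): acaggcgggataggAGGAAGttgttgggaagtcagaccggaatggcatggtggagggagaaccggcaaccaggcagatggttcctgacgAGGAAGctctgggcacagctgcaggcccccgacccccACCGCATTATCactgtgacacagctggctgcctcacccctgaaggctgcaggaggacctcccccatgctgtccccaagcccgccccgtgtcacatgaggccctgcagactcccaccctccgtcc
Cbfa2t3 proximal start, chr8:122678176-122678425 (-): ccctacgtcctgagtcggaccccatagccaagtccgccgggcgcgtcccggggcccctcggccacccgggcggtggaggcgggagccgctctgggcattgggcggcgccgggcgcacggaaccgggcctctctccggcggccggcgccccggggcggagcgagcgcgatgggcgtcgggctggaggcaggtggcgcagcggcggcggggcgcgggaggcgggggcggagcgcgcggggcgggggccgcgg
The distal Runx1 stretch held 1 ETS motif, and the distal Cbfa2t3 stretch held 2 ETS motifs, 1 RUNX variant and 1 GATA motif. In Cbfa2t3 the RUNX variant and the GATA motif abut without a gap. The proximal stretches of both genes held none of these motifs. Among the other measured members, the same stretch held 2 ETS motifs in Cbfa2t2 and 1 in Cbfb. Neither Runx3 stretch held an ETS motif, and the one with the pair of core motifs held 2 RUNX motifs. A link of these motifs to the differences was not tested. Among all 32851 windows, the 250 bases before the start held a RUNX motif of either form in 18.6%, an ETS motif in 39.2% and a GATA motif in 22.6%. The array values do not say from which start a transcript came.

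Across the members, 10 of 22 probe sets (45.5%) passed the test at an adjusted p of 0.05, 9 of them higher and 1 lower in Mn1null. Over all 45037 probe sets, 27.8% passed, 13.2% higher and 14.7% lower. The 3 values in Mn1null and the 3 in Mn1wt did not overlap for 14 of the 22 member probe sets, against 41.1% of all probe sets. All 9 higher probe sets belonged to Runx1 and Cbfa2t3, and the lower one was that of Cbfb. The share among the members thus counts Runx1 and Cbfa2t3 several times. By gene, read by the probe set of highest mean, Runx1 and Cbfa2t3 were higher and Cbfb lower. Runx3, Runx1t1 and Cbfa2t2 did not pass. By the same rule, 16.7% of all named genes were higher and 18.0% lower. Of the 12 member probe sets that did not pass, 3 had an unadjusted p under 0.05. A level of 4.07, the 30th percentile of the mean of all probe sets, is called the floor here, and 16 of the 22 had a mean above it. Among all probe sets, 37.4% of those at or above the floor passed and 5.5% of those under it. In these bulk samples, a larger share of cells with a transcript and more RNA per cell cannot be told apart.

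**Figure D1:**
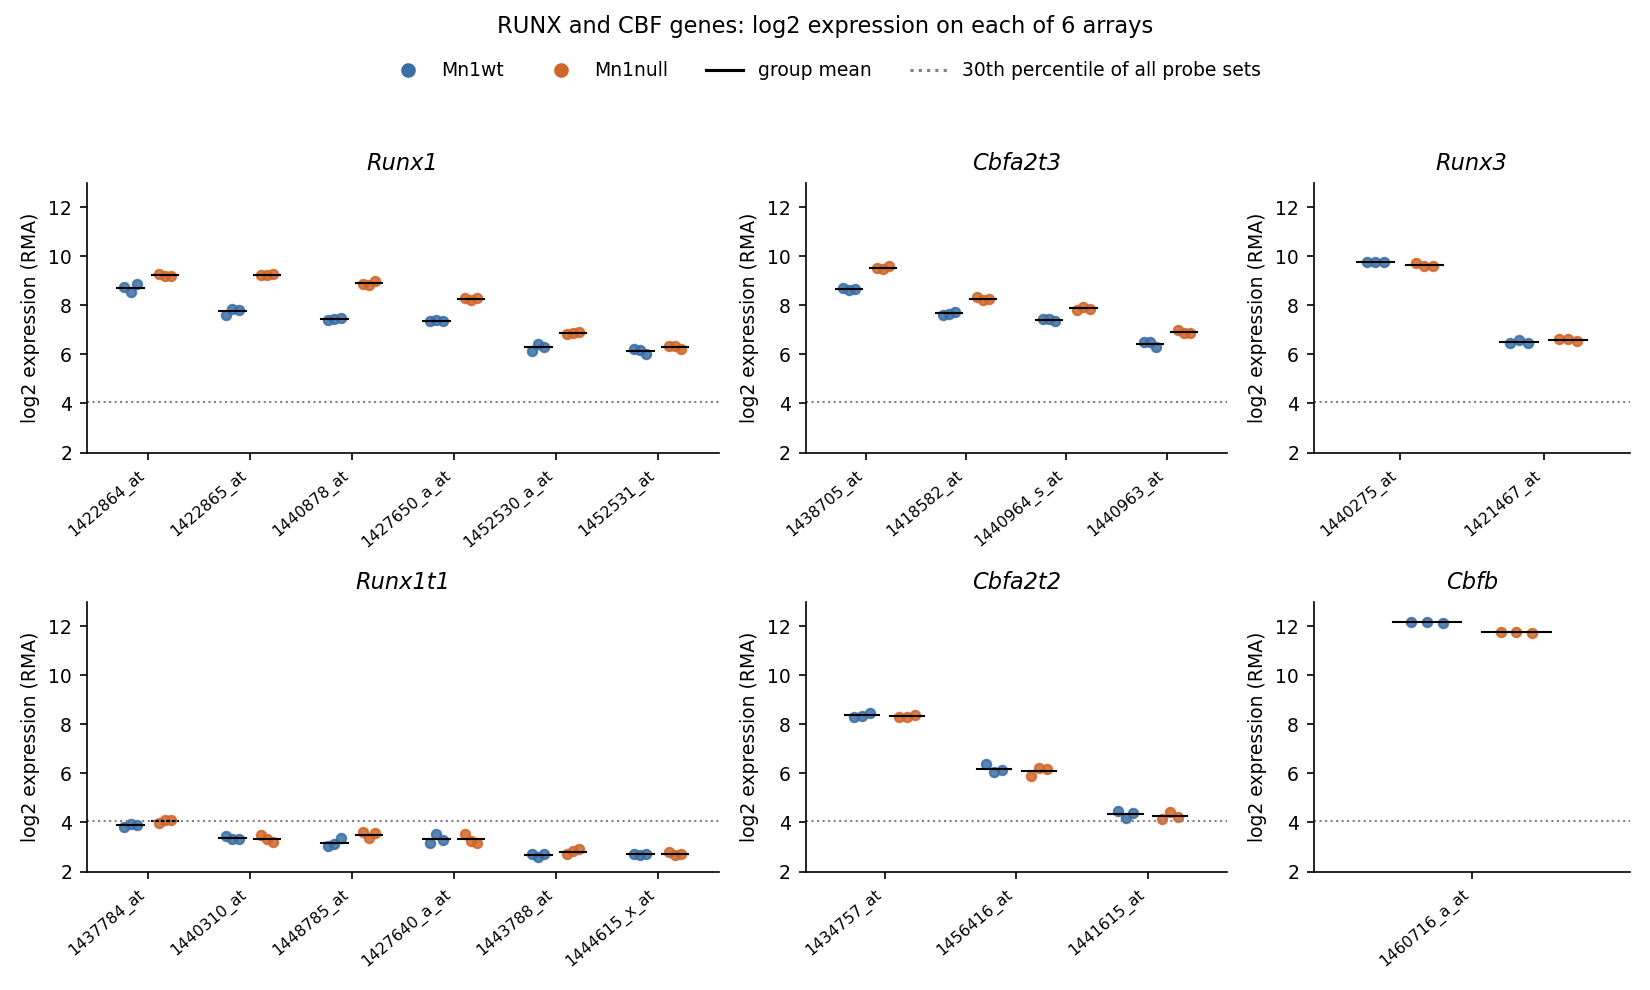
Log2 value (RMA) on each of the 6 arrays for all 22 member probe sets, in 1 panel per gene, with Mn1wt and Mn1null side by side, bars at the group means and a dotted line at the floor of 4.07. The Runx1 and Cbfa2t3 points are higher and the Cbfb points lower in Mn1null, and the Runx1t1 points lie near or under the dotted line.

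Runx1, the RUNX factor of blood formation, was higher in Mn1null on 5 of its 6 probe sets, and all 6 differed without overlap between the groups. The differences ranged from 0.18 to 1.50. Its probe set with the highest mean, 1422864_at, read 8.74, 8.55 and 8.87 in Mn1wt replicates 1 to 3 and 9.29, 9.18 and 9.21 in Mn1null. The mean rose from 8.72 ± 0.159 to 9.23 ± 0.0567 (SD, n = 3 each), which is 0.50 ± 0.0898 higher (SE, 95% interval 0.29 to 0.71) or 1.42-fold, with an adjusted p of 0.00438 by limma. Over all probe sets, 6.35% had a larger rise.

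The largest difference was read by 1422865_at, whose target sequence is annotated to the same cDNA. It read 7.59, 7.86 and 7.80 in Mn1wt and 9.24, 9.25 and 9.27 in Mn1null. The Mn1null arrays were nearly equal (SD 0.0155), and all lay far above the highest Mn1wt array. The difference was 1.50 ± 0.0814 (95% interval 1.31 to 1.69) or 2.84-fold, with an adjusted p of 1.25e-05, and 1.05% of all probe sets rose more. Close to it, 1440878_at read 7.42, 7.44 and 7.49 in Mn1wt and 8.88, 8.84 and 8.98 in Mn1null, which differ by 1.45 ± 0.0636 or 2.73-fold with an adjusted p of 4.36e-06.

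The rise was smaller on the remaining probe sets. The probe set 1427650_a_at read 7.35, 7.41 and 7.35 against 8.29, 8.22 and 8.29, a difference of 0.89 ± 0.0586 (adjusted p = 3.33e-05). The probe set 1452530_a_at read 6.13, 6.44 and 6.32 against 6.82, 6.89 and 6.92, a difference of 0.58 ± 0.0883 (adjusted p = 0.00207). Here too the highest Mn1wt array lay under the lowest Mn1null array. The sixth, 1452531_at, shares its annotated target with 1452530_a_at and did not pass: it read 6.21, 6.16 and 6.03 against 6.34, 6.36 and 6.24. Its difference was 0.18 ± 0.0719 (95% interval 0.01 to 0.35, adjusted p = 0.110, unadjusted p = 0.0382), and it passed (adjusted p = 0.0425) when probe sets under the 50th percentile were left out.

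**Figure D2:**
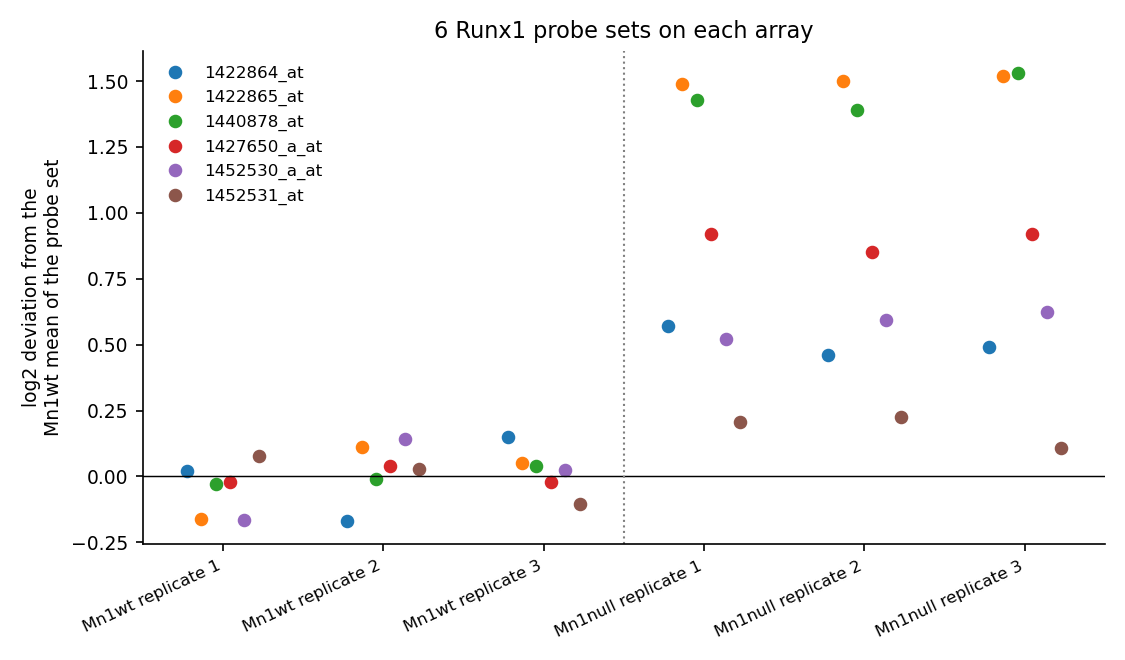
Deviation of each array from the Mn1wt mean of the same probe set (log2), for the 6 Runx1 probe sets on the 3 Mn1wt and 3 Mn1null arrays, 1 colour per probe set. The Mn1null points spread out between 1452531_at, whose mean difference is 0.18, and 1422865_at, whose mean difference is 1.50.

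The measured differences of the 6 Runx1 probe sets were unequal in size. For each pair of probe sets of 1 gene, the gap in log2 value was taken on each array and compared between the groups. The gap between 1422864_at and 1422865_at was 1.15, 0.70 and 1.07 in Mn1wt and 0.05, -0.07 and -0.06 in Mn1null, so every Mn1wt array had a larger gap than any Mn1null array. The mean gap changed by -1.0 (exact permutation test, 2-sided, p = 0.1, the smallest that 3 against 3 arrays can give). The gap between 1452530_a_at and 1452531_at, the other pair with 1 annotated target, was -0.08, 0.28 and 0.29 in Mn1wt and 0.47, 0.54 and 0.68 in Mn1null, and its mean changed by 0.40 (exact p = 0.1). By contrast, the gap between 1422865_at and 1440878_at changed by 0.06 and the groups overlapped (exact p = 0.7). Of 15 Runx1 pairs, 12 had gaps that did not overlap between the groups. These pairs reuse the same 6 probe sets and are not separate observations. The share without overlap among probe set pairs of all genes was not computed. Of the 40 pairs over the 5 genes with several probe sets, none could reach 0.05, and the smallest adjusted p was 0.222.

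Labelling controls moved with the groups. The 5′ probe sets of the bacterial labelling controls had a mean of 7.32 ± 0.101 in Mn1wt and 6.47 ± 0.0587 in Mn1null. They differed by -0.85, without overlap for 8 of 8. The 3′ probe sets of the same controls differed by -0.30, and the hybridisation controls by -0.09. The 3′ minus 5′ gap of the array's actin and Gapdh controls differed by -0.01 and 0.03 between the groups and that of the transferrin receptor by 0.09, all with overlap. The gap of pyruvate carboxylase differed by 0.49 and that of ribosomal RNA by 0.27, both without overlap. The part of these shifts in the unequal Runx1 differences was not tested. Nor was their part in the differences of Cbfb, Cbfa2t3 and the other genes described here. Where the Runx1 probes lie along the transcript is unknown here.

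Cbfb, the subunit shared by all RUNX factors, fell. Its probe set 1460716_a_at read 12.15, 12.16 and 12.13 in Mn1wt and 11.75, 11.77 and 11.72 in Mn1null, so all Mn1null arrays were lower and the values within a group differed by a few hundredths. The mean fell from 12.15 ± 0.0168 to 11.74 ± 0.0267 (SD, n = 3 each), which is -0.40 ± 0.0556 (SE, 95% interval -0.53 to -0.27) or 1.32-fold, with an adjusted p of 0.00126 by limma. Over all probe sets, 8.71% fell by more. No other probe set of Cbfb was assigned to it alone, so the fall rests on 1 probe set. Runx1 and its subunit thus moved in opposite directions between the groups.

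Runx3 did not pass on either probe set. The probe set 1440275_at read 9.77, 9.75 and 9.76 in Mn1wt and 9.73, 9.61 and 9.61 in Mn1null. All Mn1null values were below the Mn1wt values, but the difference of -0.11 ± 0.0617 (95% interval -0.25 to 0.03) had an adjusted p of 0.254. On 1421467_at the values were 6.45, 6.57 and 6.47 against 6.62, 6.62 and 6.55, and the groups overlapped. That difference had the other sign, 0.10 ± 0.0624 (95% interval -0.05 to 0.25, adjusted p = 0.308). By limma, 0 of the 2 probe sets had an unadjusted p under 0.05. The interval of 1440275_at leaves room for a fall of up to 0.25 and a rise of up to 0.03. That of 1421467_at leaves room for a rise of up to 0.25 and a fall of up to 0.05.

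Cbfa2t3, whose product ETO2 works with TAL1 and GATA factors in erythroid and megakaryocyte precursors, rose on 4 of 4 probe sets, with no overlap on any. The probe set with the highest mean, 1438705_at, read 8.69, 8.64 and 8.65 in Mn1wt and 9.52, 9.50 and 9.60 in Mn1null. Its mean rose from 8.66 ± 0.0254 to 9.54 ± 0.0553, a difference of 0.88 ± 0.0599 (95% interval 0.74 to 1.02) or 1.84-fold, with an adjusted p of 4.02e-05 by limma, and 2.71% of all probe sets rose more. The probe set 1418582_at read 7.62, 7.65 and 7.74 against 8.32, 8.22 and 8.24, a difference of 0.59 ± 0.0644 or 1.50-fold (adjusted p = 4.09e-04).

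The remaining Cbfa2t3 probe sets share 1 annotated target and moved by similar amounts. The probe set 1440963_at read 6.49, 6.52 and 6.30 against 6.98, 6.89 and 6.87, a difference of 0.48 ± 0.0777 (adjusted p = 0.00281). The probe set 1440964_s_at read 7.44, 7.44 and 7.37 against 7.82, 7.94 and 7.87, a difference of 0.46 ± 0.0621 (adjusted p = 0.00116). Across the 6 pairs of Cbfa2t3 probe sets, 3 had gaps that did not overlap between the groups, and the largest change of a gap was 0.42. Here too the pairs reuse probe sets, and the share among pairs of all genes was not computed.

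Cbfa2t2, which encodes the related corepressor MTGR1, passed on 0 of 3 probe sets, and 0 had an unadjusted p under 0.05 by limma. The probe set 1434757_at read 8.31, 8.32 and 8.47 in Mn1wt and 8.30, 8.31 and 8.39 in Mn1null, and the means differed by -0.03 ± 0.0685 (95% interval -0.19 to 0.13, adjusted p = 0.787). On 1456416_at the values were 6.39, 6.07 and 6.12 against 5.91, 6.22 and 6.16, and on 1441615_at they were 4.46, 4.19 and 4.39 against 4.16, 4.43 and 4.24. The groups overlapped on all 3. The widest interval, that of 1456416_at, ran from -0.36 to 0.17.

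Runx1t1, which encodes ETO itself, had 6 probe sets with values between 2.60 and 4.11, and the mean of each lay under the floor of 4.07. None passed by limma, and 2 had an unadjusted p under 0.05. The probe set with the highest mean, 1437784_at, read 3.80, 3.94 and 3.91 in Mn1wt and 3.96, 4.09 and 4.11 in Mn1null, higher by 0.17 ± 0.0718 (adjusted p = 0.126) with no overlap. The nearest to the threshold was 1448785_at, at 3.05, 3.13 and 3.36 against 3.60, 3.35 and 3.55, a difference of 0.32 ± 0.104 (adjusted p = 0.0574) with overlap between Mn1wt replicate 3 and Mn1null replicate 2. With Mn1wt replicate 3 left out it passed (0.41, adjusted p = 0.023), and likewise when Mn1null replicate 2 was left out (0.40, adjusted p = 0.039). With all 6 arrays it also passed under array weights (0.36, adjusted p = 0.034) and with an intensity trend and robust eBayes (0.32, adjusted p = 0.0392). The differences of the other 4 lay between -0.03 and 0.14. At such low signals RMA compresses differences, so a change of Runx1t1 may not be detectable on these arrays.

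**Figure D3:**
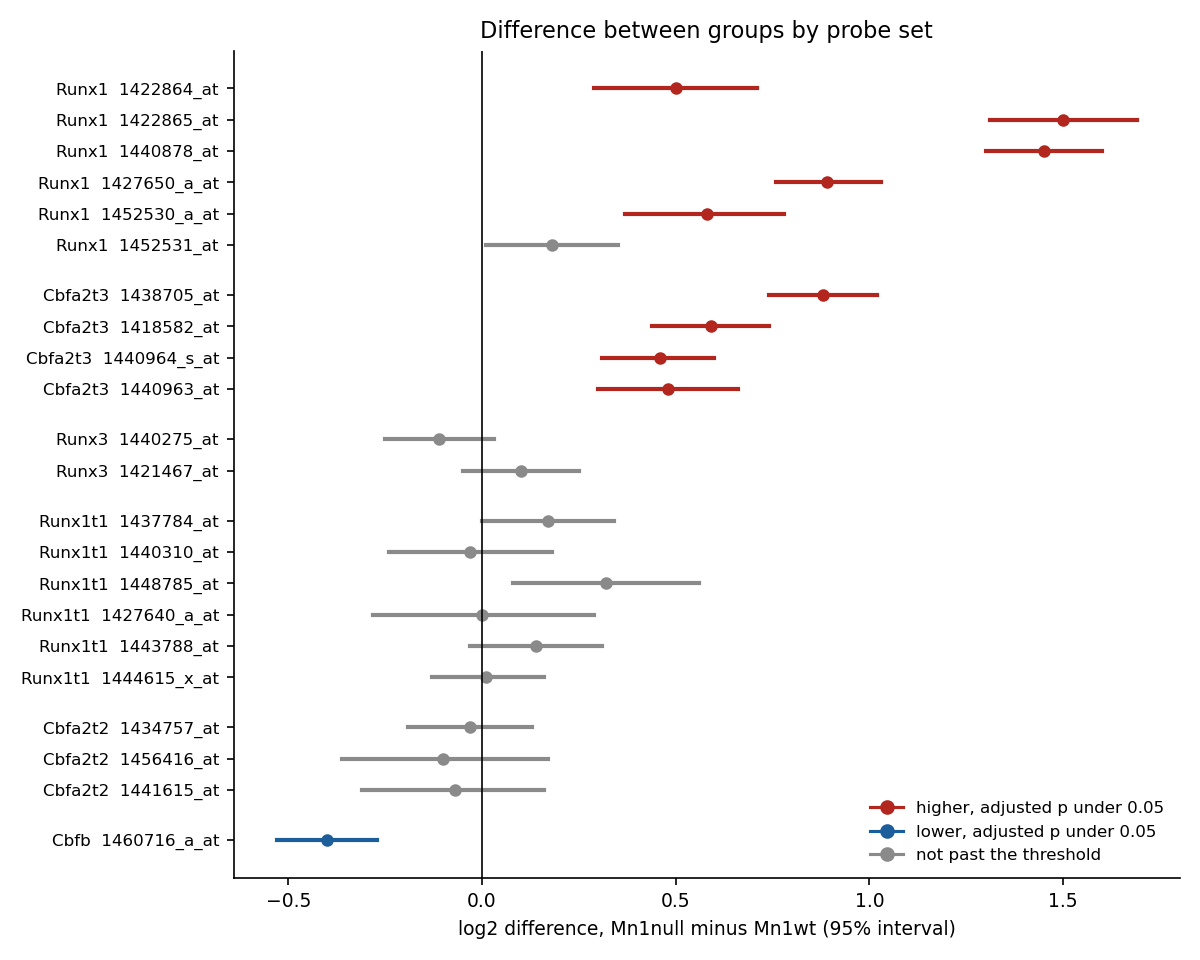
Difference of the group means, Mn1null minus Mn1wt on the log2 scale, for each of the 22 member probe sets, with 95% intervals of the limma fit. The 9 that passed as higher belong to Runx1 and Cbfa2t3 and lie to the right of 0, Cbfb lies to the left, and the intervals of Cbfa2t2 and Runx3 cross 0.

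The DNA-binding partners of RUNX and ETO factors were described by 19 genes, each read by the brightest of its probe sets. Of these, 10 rose, 3 fell, and 6 did not pass. The median difference was 0.229. For all 18193 named genes, 16.7% were called higher and 18.0% lower, and the median was 0.000133. Gfi1b, a transcriptional repressor made in erythroid and megakaryocyte precursors, rose from 6.81 ± 0.0952 to 8.50 ± 0.0472, by 1.69 ± 0.0704 (adjusted p = 3.39e-06). Gata2, a factor of progenitors and mast cells, rose from 9.60 ± 0.0349 to 11.25 ± 0.0807, by 1.65 ± 0.0657 (adjusted p = 2.62e-06), and its other probe set by 1.76. The other genes that rose, named after their values were seen, were Gata1 (difference 1.76), Zbtb16 (1.70), Ets1 (1.31), Cebpa (0.93), Tal1 (0.92), Tcf12 (0.32), Erg (0.23) and Myb (0.23).

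Among the partners that fell, Tcf4, an E protein that binds ETO proteins, went from 9.96 ± 0.0721 to 8.91 ± 0.0616, a difference of -1.05 ± 0.0674 (adjusted p = 2.99e-05), and 4 of its 5 other probe sets also fell. Lmo2, the bridging protein of the TAL1 complex, fell from 12.86 ± 0.021 to 12.03 ± 0.0407, a difference of -0.83 ± 0.0574 (adjusted p = 4.38e-05). Gfi1, named after its value was seen, differed by -0.39. Within the complex that brings ETO2 to DNA, Tal1 and Gata1 were thus higher and Lmo2 lower in Mn1null. Ldb1, its dimerising subunit, also named after its value was seen, differed by -0.12 (adjusted p = 0.364).

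Cofactors and enzymes that modify RUNX proteins had 24 of 25 listed genes with a probe set, of which 5 rose, 7 fell and 12 did not pass. The median was 0.0271. The 5 of 24 that rose are near the 16.7% of all named genes that did, and 18.0% of all named genes fell. Hipk2, a kinase that phosphorylates RUNX1 and its coactivators, rose from 9.73 ± 0.0966 to 11.15 ± 0.0374, by 1.42 ± 0.0697 (adjusted p = 7.69e-06), and 6 of its 7 other probe sets rose. Ccnd3, a D-type cyclin, rose by 0.83 ± 0.0581 (adjusted p = 4.67e-05), while its 2 other probe sets differed by 0.01 and 0.61, of which 1 passed. Brpf1, a subunit of the MOZ acetyltransferase complex, fell from 10.20 to 9.55 (difference -0.65 ± 0.0624, adjusted p = 2.15e-04). Prmt1, which methylates RUNX1 on arginine, fell from 12.27 to 11.70 (difference -0.57 ± 0.058, adjusted p = 2.91e-04). The arginine methyltransferases Carm1 (-0.73) and Prmt6 (-0.20), named after their values were seen, were also lower. The coactivator Ep300, also named after its value was seen, differed by 0.11 and did not pass (adjusted p = 0.220). Without Mn1wt replicate 2, or without Mn1null replicate 3, the number that rose was 3.

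The corepressor complex that ETO proteins recruit had 9 of 11 listed genes with a probe set, and 1 rose, 3 fell and 5 did not pass. The median was -0.0967. Of all named genes, 16.7% rose and 18.0% fell. Tbl1xr1, a subunit of the NCOR complex, fell from 10.58 to 10.10 (difference -0.47 ± 0.0555, adjusted p = 5.7e-04), but only 2 of its 5 other probe sets fell, and their differences ran from -0.72 to 0.15. Sin3a, the scaffold of the SIN3 complex, fell from 9.35 to 9.01 (difference -0.34 ± 0.0617, adjusted p = 0.00503). Its other probe sets, at -0.21 and -0.20, did not pass. Irf2bp2, a corepressor partner of ETO2, rose by 0.26 ± 0.0584 (adjusted p = 0.0124), and its 3 other probe sets rose by 0.59 to 0.77. Without Mn1null replicate 1 the representative probe set of Irf2bp2 did not pass, and 0 of the 9 rose.

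Known RUNX target genes in blood cells had 22 of 23 listed genes with a probe set, of which 8 rose, 4 fell and 10 did not pass. The list was not split into genes that RUNX factors activate or repress, so these counts give no direction of RUNX activity. The median was 0.0747. The 4 of 22 that fell are near the 18.0% of all named genes that did, and 16.7% of all named genes rose. Itgal, the alpha chain of the leukocyte integrin LFA-1, rose from 8.62 ± 0.0465 to 11.83 ± 0.0238, by 3.21 ± 0.0584 (adjusted p = 8.99e-08), and its other probe set by 2.13. Gzmb, the protease granzyme B, rose from 9.24 ± 0.0344 to 12.08 ± 0.0139, by 2.84 ± 0.0563 (adjusted p = 1.33e-07). Csf1r, the receptor of macrophage colony-stimulating factor, fell from 8.43 ± 0.0551 to 6.93 ± 0.203, a difference of -1.50 ± 0.104 (adjusted p = 4.39e-05), and both of its other probe sets fell. Pf4, a platelet chemokine that RUNX1 is known to activate, fell from 8.14 to 7.16 (difference -0.98 ± 0.0695, adjusted p = 4.95e-05).

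RUNX2 target genes of bone had 8 of 10 listed genes with a probe set, and 1 rose, 0 fell and 7 did not pass. The median was -0.0485. The shares of all named genes were 16.7% and 18.0%. By limma, 1 was higher and 0 lower at an unadjusted p under 0.05. The 1 that rose was Vegfa, a growth factor of blood vessels made by many cells, from 7.87 to 8.19 (difference 0.32 ± 0.0758, adjusted p = 0.0164), and its other probe set differed by 0.20. Without Mn1null replicate 3 none of the 8 rose. Of the 8, 4 had a mean over all arrays under the floor of 4.07.

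**Figure D4:**
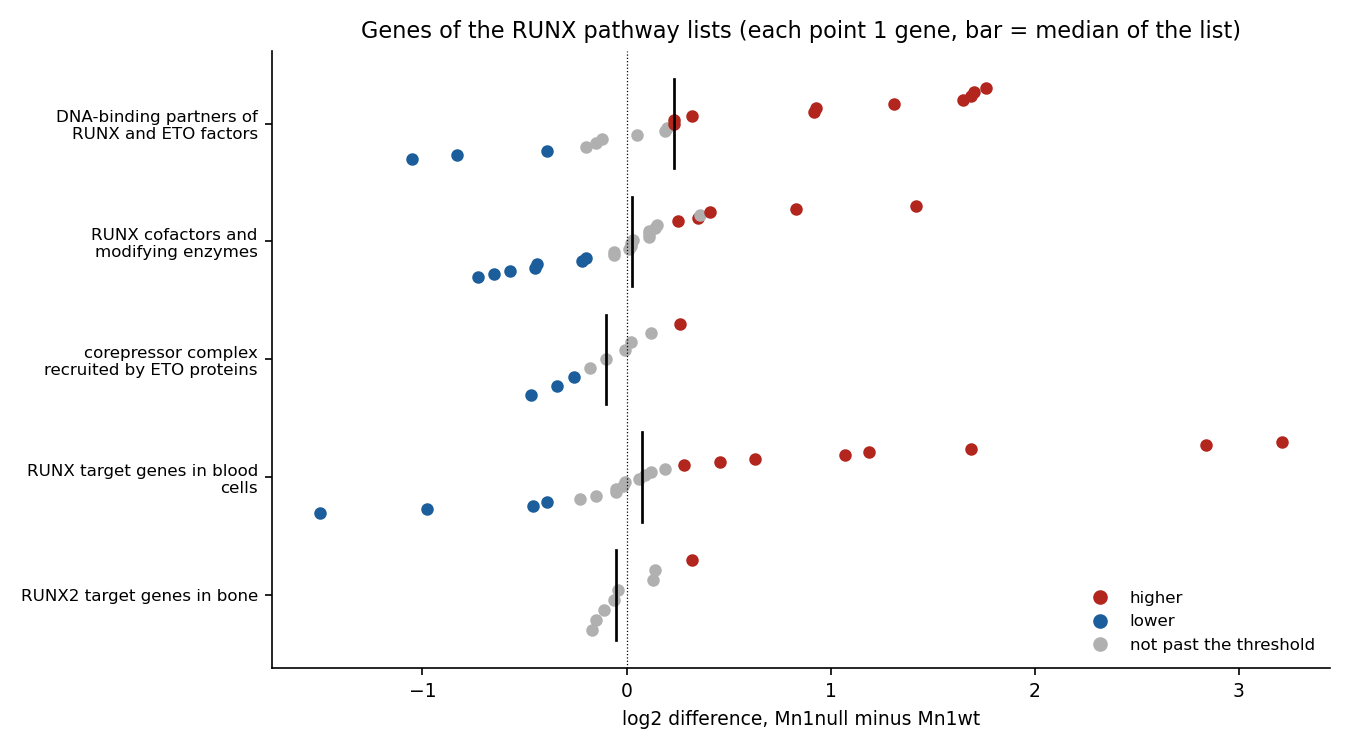
Difference of the group means (Mn1null minus Mn1wt, log2) for every gene of the 5 lists of partners, cofactors, corepressors and targets, 1 point per gene, coloured by the call, with a bar at the median of each list. Of 19 partners 10 were called higher, and 1 of 8 bone targets.

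Markers of several blood lineages moved with the groups, and their part in the differences of Runx1, Cbfa2t3 and Cbfb was not tested. For comparison with the counts below, 16.7% of all named genes were called higher and 18.0% lower. Mast cell and basophil genes were higher for 6 of 8, and the mean log2 level of the list was 7.28 to 7.34 on the Mn1wt arrays and 9.09 to 9.11 on the Mn1null arrays. Of 7 monocyte genes, 5 were lower and 1 higher, with list means of 8.42 to 8.58 in Mn1wt and 6.03 to 6.11 in Mn1null. Of 6 megakaryocyte genes, 3 were higher and 2 lower (list means 6.68 to 6.77 and 7.30 to 7.44), and of 7 erythroid genes 3 were higher and 0 lower (7.04 to 7.07 and 7.47 to 7.52). Of 8 neutrophil genes, 5 were higher and 1 lower, and the list mean was at most 10.1 on the Mn1wt arrays and at least 10.6 on the Mn1null arrays. Gata2 belongs both to the mast cell list and to the RUNX partners, and Gata1 to the erythroid list and the partners. Csf1r and Pf4 belong to the monocyte and megakaryocyte lists and the RUNX targets. Klf1 (erythroid list), Mpo and Elane (neutrophil list) and Cd4 (T and NK cell list) are also RUNX targets. Myb belongs to the progenitor list and the partners, and Spi1 and Gfi1 to the partners and the targets.

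RUNX factors also act in lymphocytes and bone. Of 8 T and NK cell genes, 0 passed by limma and 0 had an unadjusted p under 0.05, with list means of 4.88 to 4.89 in Mn1wt and 4.86 to 4.96 in Mn1null. Osteoblast and stroma genes had 1 of 9 higher, Pdgfrb, with list means of 4.61 to 4.74 and 4.80 to 4.91. Ibsp, Col1a1, Col1a2, Alpl and Sp7 of this list are also RUNX2 targets of bone above, so these lists are not separate observations. Pdgfrb rose by 1.76 on its probe set with the highest mean and by 6.42 on its other probe set, which also passed. Of 6 B cell genes, 1 was higher and 1 lower (4.87 to 4.99 and 4.98 to 5.01). These B cell counts are near the shares of all named genes, 16.7% higher and 18.0% lower. Of 4 endothelial genes, 0 passed by limma and 0 had an unadjusted p under 0.05 (list means 4.30 to 4.46 and 4.24 to 4.37).

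Cbfa2t3 had the largest difference among the probe sets that represent a gene here, and its pattern over the 6 arrays was compared with 18187 other named genes. Likeness was the root mean square gap between deviations from each gene's own Mn1wt mean. The closest was Nqo1, a quinone reductase, at a gap of 0.0242, followed by Stk10, a serine-threonine kinase of blood cells, at 0.0335. Pigbos1, Bmpr2, a receptor of bone morphogenetic proteins, and Fam126a followed at 0.0368, 0.0368 and 0.0404. In all, 189 genes lay within 0.1 of Cbfa2t3.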

How the data were processed

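RNA was extracted with Trizol, labelled with biotin and hybridised to 1-colour Affymetrix mouse arrays, per the labels' protocols. Each deposited column holds one array's log2 values, 1 per probe set, which RMA gave per the submitters' processing notes. Not given in the sources used here are its version and any filter. RMA equalises the distributions of the arrays, which removes overall differences in RNA amount, and compresses low signals.

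The 64 control probe sets were kept out of the tests. Of the other 45037, the annotation names 1 gene for 34945, several for 932, and does not list 9160. Entrez identifiers of 34741 were found in the RefSeq table (GRCm38.p6), and 0 symbols changed. All 45037 entered 1 limma fit (version 3.58.1, lmFit then eBayes, R 4.3.3) with no filter and no block. Differences are Mn1null minus Mn1wt, tests are 2-sided, and p-values were adjusted by Benjamini and Hochberg over the whole table, with a threshold of 0.05. Every adjusted p of a gene or probe set comes from this model unless a setting is named. Of these, 12528 passed. Gaps between probe sets were compared with exact permutation tests. The fit was tested on simulated data.

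The members and lists were chosen with earlier results of these data known. All members are named, and in each list up to 2 genes per direction with the smallest p among those that passed, plus Mn1 and the 5 genes most like Cbfa2t3. The rule was applied to the lists of partners, cofactors, corepressors, targets and progenitor identity. Markers of other cell types are given as counts and ranges. Ptprc, Kit, Spn, Meis1, Myb and Pdgfrb were also named after their values were seen. Genes shared between lists are named as well. The number of arrays limits the precision. Alternatives were array weights, robust eBayes with an intensity trend, renormalizing by quantiles or by medians, filters at the 30th and 50th percentile, other rules for probe sets, a threshold of 0.01, the replicate block and each array left out.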

Additional observations from a re-analysis of the deposited data

How the results depend on the processing

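The replicate numbers gave no pairing: same-numbered arrays deviated together at correlations of -0.0357, 0.0778 and 0.0228. With the replicate block, 10 member probe sets passed, 9 higher and 1 lower, and 11196 of all probe sets. Without each array in turn, 10 to 11 member probe sets passed, 9 to 10 of them higher. With 1 probe set per gene above the 30th percentile, 3 members passed and 2 were higher, because each gene then counts once, and 7170 genes passed in all. Runx1 ranged from 0.49 to 1.50 over the other settings, the highest being its probe set with the largest variance. Cbfb ranged from -0.41 to -0.37 and Cbfa2t3 from 0.60 to 0.89. Runx1t1 passed when read by its probe set with the largest variance (0.32, adjusted p = 0.0476). Among the lists, 5 RUNX and ETO partners fell with the intensity trend and robust eBayes. The number of partners that rose was 8 to 10 without each array in turn and 8 to 12 over the other settings. At a threshold of 0.01, 3 cofactors, 0 corepressor genes and 0 bone targets rose, and with the trend 2 corepressor genes rose. Without each array in turn, 3 to 5 cofactors, 0 to 1 corepressor genes and 0 to 1 bone targets rose, and 5 to 6 cofactors fell. Differences near 0 changed sign, none of them called. With quantile normalization 1427640_a_at was at -0.0033 and 1444615_x_at at -0.0039, and with median centring 1427640_a_at was at -0.0057. Without each array in turn, Cbfa2t2 (1434757_at) ranged from -0.061 to 0.017, and the Runx1t1 probe sets 1427640_a_at, 1440310_at and 1444615_x_at from -0.1 to 0.1, -0.1 to 0.047 and -0.019 to 0.045. The cause of these changes was not tested.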
